A study of Mus musculus with 6 samples.

Results

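Ddit3, Mars, Gm4189 and Trib3 are 4 of the 15286 genes with a row in the count table of mouse pancreatic islet RNA. They were chosen by name, as Ddit3, the genes whose exons overlap it on the opposite strand (Mars and Gm4189), and Trib3, and each was found by matching its Ensembl identifier to its symbol. Ddit3 encodes CHOP, a transcription factor of the integrated stress response. In that response, kinases that sense unfolded protein, lack of amino acids, double-stranded RNA or lack of heme phosphorylate the initiation factor eIF2, which lowers translation in general and raises that of ATF4. ATF4 induces Ddit3, and CHOP with ATF4 induces further genes, Trib3 among them.

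The islets came from male mice of 12 weeks on a C57BL/6N background, 3 of them WT and 3 flox/flox, that is, homozygous for a cassette in the first intron of the long non-coding RNA A830019P07Rik (P07Rik). Isolated islets of both genotypes were kept in 3 mM glucose for 2 h before RNA was extracted, and each mouse gave 1 library. WT replicates 1 and 2 and flox/flox replicates 1 and 2 belonged to litter 1, and replicate 3 of each genotype belonged to litter 2. Counts of the targeted gene were not analysed here, and genotypes were taken from the labels.

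The total count was 698588, 793596 and 690726 in WT replicates 1, 2 and 3, and 646141, 611181 and 800255 in flox/flox replicates 1, 2 and 3. Reads were 125 bp long. AY036118, a gene within an annotated ribosomal RNA gene, took 14.5%, 20.0% and 13.6% of the counts in WT replicates 1 to 3 and 14.5%, 22.1% and 41.0% in flox/flox replicates 1 to 3. Flox/flox replicate 3 thus stood apart from the other libraries in the share taken by this gene. Levels are given as CPM, counts divided by a TMM-scaled library size that corrects for such differences in composition, or as CPM per kb of merged exons where different genes are compared.

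Markers of islet endocrine cells were present at low counts. All 10 beta cell markers were analysed, and Ins2, an insulin gene, was the most abundant with 157, 205 and 158 counts in WT and 165, 128 and 96 counts in flox/flox replicates 1 to 3. Of the alpha cell markers 3 of 5 were analysed, led by Gcg (glucagon), and of those of delta and PP cells 3 of 4, led by Ppy. The acinar list (6 of 8 genes) reached 19.4 to 55.8 summed CPM per library and the endothelial list (3 of 4) 7.05 to 23.7. The stromal list (1 of 4) reached 1.30 to 4.12 and the immune list (2 of 5) 6.99 to 20.6 summed CPM. The beta cell list reached 393.2 to 608.7 summed CPM, above all other marker lists in every library. In such bulk RNA, fewer cells of a type and less RNA per cell cannot be told apart.

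The libraries were strand-specific, and HTSeq, which made the counts, takes by default only reads on the annotated strand of a gene. Among protein-coding genes with exons that overlap an annotated antisense gene, there were 472 pairs with a row for both genes and a mean of at least 50 counts in either. The antisense row was the higher per kb in 443 of these 472 pairs. Exons overlapped those of an opposite gene in 62.0% of the 5478 genes that passed the low-count filter and in 27.2% of the other rows. The library totals were also small beside the stated sequencing depth. Higher antisense rows and small totals are what counting on the reversed strand would give, in which case the Mars row would hold plus strand reads, those of Ddit3 in the shared 3′ end among them, and the Ddit3 row minus strand reads. Which strand the reads came from was not tested, and this doubt applies to every row named here, Trib3, the pathway genes and the markers included. Levels below are those of rows under the gene's name.

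In the GENCODE annotation of GRCm38 (mm10), Ddit3 (ENSMUSG00000025408) lies on the plus strand at chr10:127290774-127296288. Mars (ENSMUSG00000040354), the methionyl-tRNA synthetase of the cytoplasm, lies tail to tail with it on the minus strand at chr10:127296221-127311786. The last exon of Ddit3 and that of Mars share 68 bp, chr10:127296221-127296288, in the 3′ UTR of both genes. A read of 125 bp that touches the overlap can reach back to position 127296097, so that 192 bp of the last Ddit3 exon lie within a read length of a Mars exon. Gm4189 (ENSMUSG00000092384), a processed transcript, lies head to head with Ddit3 on the minus strand at chr10:127289696-127290788, and its first exon shares 13 bp with the first exon of Ddit3. Trib3 (ENSMUSG00000032715), which encodes a pseudokinase that binds AKT, lies at chr2:152337422-152344032 on the minus strand, and no annotated exon overlaps its exons on the opposite strand.

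**Figure D1:**
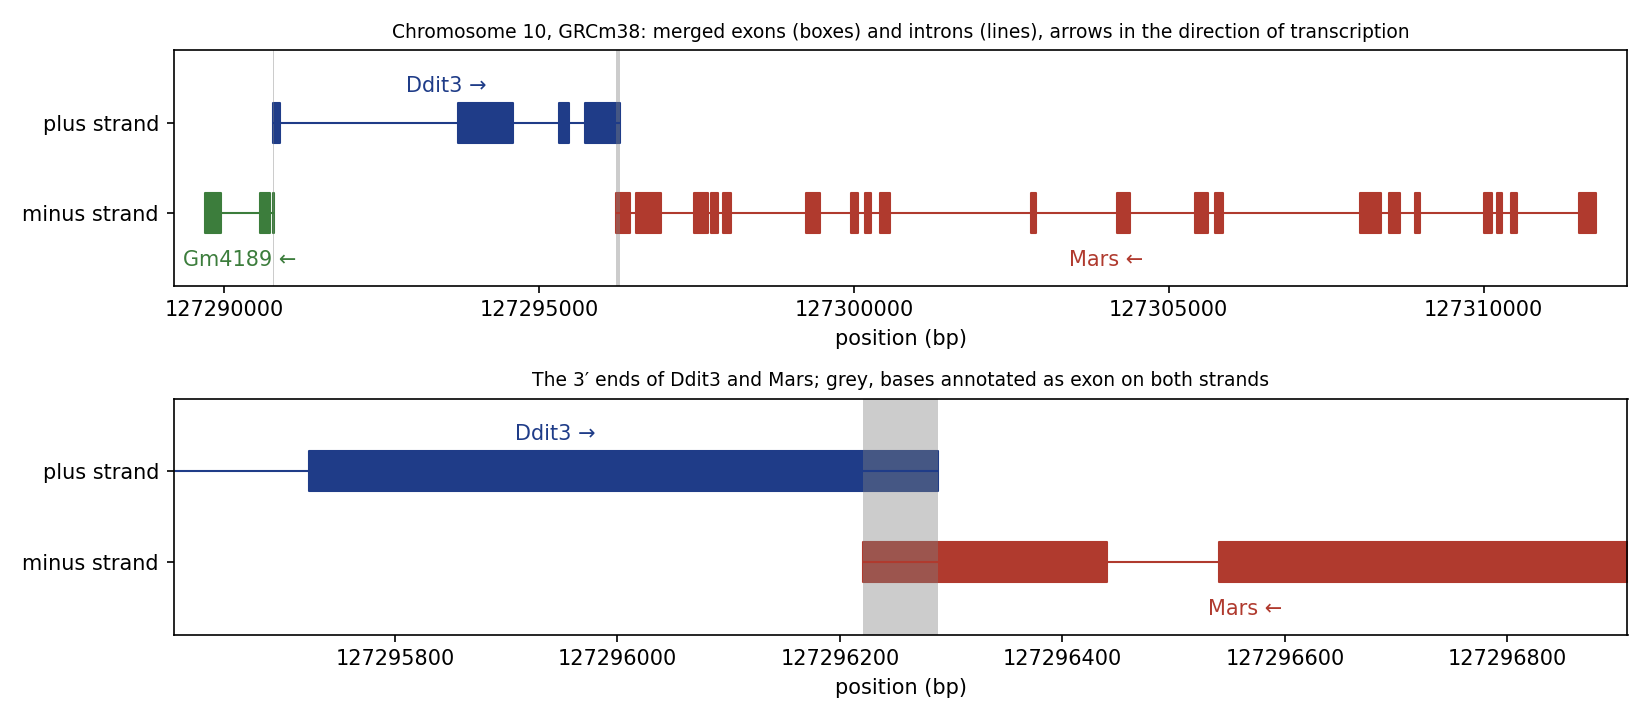
Map of the Ddit3, Mars and Gm4189 genes on chromosome 10 (GRCm38; x axes, position in bp; boxes, merged exons; lines, introns; upper row of each panel, plus strand; lower row, minus strand). The lower panel enlarges the 3′ ends, where the grey band marks the 68 bp that are exon of Ddit3 and of Mars.

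The sequence before the first base of Ddit3 is shown because an exon of Gm4189 lies in it, so that a transcript of the opposite strand is annotated there. Promoter windows from RefSeq (GRCm38.p6) matched 3 of the 4 genes, Ddit3, Mars and Trib3. The 231 bases at chr10:127290543-127290773, plus strand, are printed with the 162 bases of the Gm4189 exon at chr10:127290563-127290724 in capitals.
Ddit3 upstream: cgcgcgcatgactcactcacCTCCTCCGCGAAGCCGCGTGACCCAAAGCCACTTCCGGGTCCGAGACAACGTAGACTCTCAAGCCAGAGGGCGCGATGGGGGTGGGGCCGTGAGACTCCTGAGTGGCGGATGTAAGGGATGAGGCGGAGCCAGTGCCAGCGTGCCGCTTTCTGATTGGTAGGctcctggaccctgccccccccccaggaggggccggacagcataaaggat

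Both strands of the promoter windows were searched for TGANTCA (an AP-1 site), TGATGNAA (a composite site of C/EBP and ATF factors) and CCAAT. The Ddit3 window held TGACTCA at chr10:127290551-127290557, just outside the Gm4189 exon, and a CCAAT box on the minus strand at chr10:127290716-127290720, inside that exon. The Trib3 window held the composite site on the strand opposite to the gene, as TTACATCA at chr2:152344039-152344046. Of all 32851 promoter windows 7.81% held TGANTCA and 3.97% held TGATGNAA. The Mars window held CCAAT at chr10:127312004-127312008, as did 37.4% of all windows on either strand. These matches describe the sequence and were not tied to the counts.

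Of the 4 genes, 2 passed the low-count filter. Ddit3 had 43, 50 and 72 counts in WT replicates 1, 2 and 3 and 52, 37 and 53 counts in flox/flox replicates 1, 2 and 3. Its levels were 59.0, 64.9 and 97.3 CPM in WT and 77.0, 65.2 and 92.6 CPM in flox/flox libraries. The genotypes overlapped, and the highest level in each genotype was that of the mouse of litter 2.

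Mars had 665, 597 and 625 counts in WT and 621, 401 and 423 counts in flox/flox replicates 1 to 3. Its levels were 912.4, 774.9 and 845.0 CPM in WT and 919.3, 706.2 and 739.2 CPM in flox/flox libraries. The genotypes and the litters both overlapped for Mars, and its lowest and highest libraries were both flox/flox mice of litter 1.

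Gm4189 had 4, 4 and 2 counts in WT and 1, 3 and 3 counts in flox/flox replicates 1 to 3. Trib3 had 1, 3 and 5 counts in WT and 1, 0 and 0 counts in flox/flox replicates 1 to 3. Neither gene passed the filter, and Trib3 was above 3 counts only in WT replicate 3. A count of 0 allows up to 3 counts, or 5.28 CPM in flox/flox replicate 2 and 5.24 CPM in flox/flox replicate 3. Such limits and the intervals of counts given here cover counting error only, since reads amplified by PCR are not independent molecules.

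**Figure D2:**
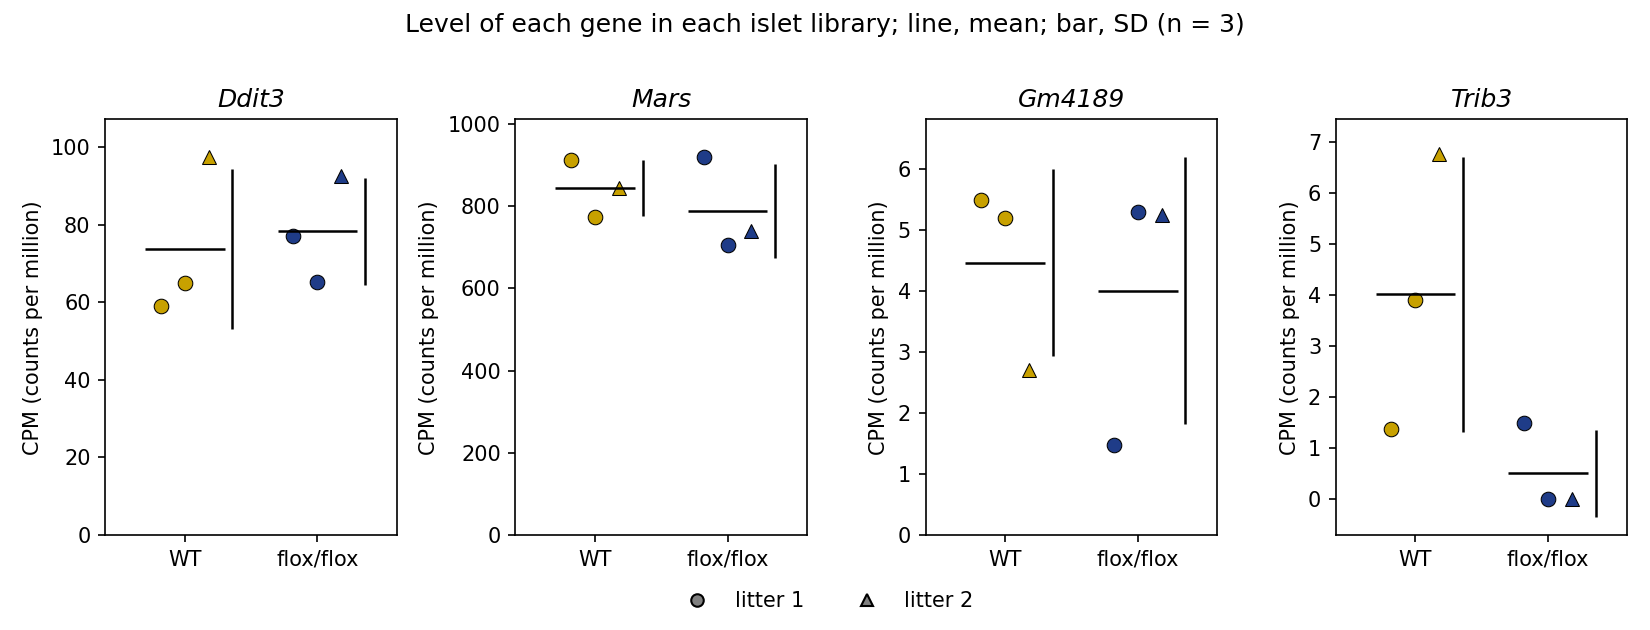
Level of Ddit3, Mars, Gm4189 and Trib3 in each library (y axes, CPM; circles, litter 1; triangles, litter 2; yellow, WT; blue, flox/flox; horizontal line, mean; vertical bar, SD, n = 3 mice). For Ddit3 the libraries of litter 2, at 97.3 and 92.6 CPM, lie above those of litter 1, whereas the genotypes overlap for each gene.

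Per kb of exon, the order of the 4 genes was Mars at 238.4 ± 26.3, Ddit3 at 44.4 ± 9.28, Gm4189 at 9.82 ± 3.96 and Trib3 at 1.06 ± 1.24 CPM per kb (mean ± SD, n = 6). The ranges of neighbours in this order did not overlap over the 6 libraries. For Gm4189 and Trib3 this rests on 1 to 4 and 0 to 5 counts per library, and these ranges of counts overlap. Mars ranged from 206.3 to 268.6 and Ddit3 from 34.4 to 56.8 CPM per kb, whereas Gm4189 ranged from 3.43 to 12.7 and Trib3 from 0 to 3.18. This is an order of rows. If counting was on the reversed strand, that of Mars and Ddit3 would turn, with the row opposite Ddit3 at 238.4 and that opposite Mars at 44.4 CPM per kb. Among 15258 genes with a known exon length, 2.11% had a higher mean than Mars, 11.7% than Ddit3, 30.1% than Gm4189 and 70.0% than Trib3. By CPM without correction for length, Mars ranked 105 of 15286 genes.

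The Mars row was also above those of its own gene family in mean level per kb, with the doubt on strand given above. None of 19 other cytoplasmic aminoacyl-tRNA synthetases and associated factors reached its mean per kb, and the highest of them, Farsb, a subunit of the phenylalanyl-tRNA synthetase, was at 60.1 ± 8.49 CPM per kb (SD, n = 6). The median of these 19 genes was 1.33 CPM per kb. Of 15 mitochondrial synthetases the highest mean was that of Lars2 at 137.9 ± 78.4 CPM per kb. Lars2 ranged from 641.0 to 2890 CPM, and in flox/flox replicate 3, its highest library, it was above Mars per kb. Exons of Farsb overlap exons of Sgpp2 on the opposite strand, as those of Mars overlap Ddit3. If counting was on the reversed strand, the place of Mars above its family might not hold. The Ddit3 row, opposite Mars, was at 44.4 CPM per kb, below the Farsb row, and the level of Sgpp2, opposite Farsb, is not given here.

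The Ddit3 row was likewise above those of the other transcription factors of the integrated stress response. On the reversed strand this order would not be known from these rows, since each would hold reads opposite its gene. The rows opposite Jun and Ddit3, Junos and Mars, were at 629.1 and 238.4 CPM per kb. They share only 232 and 68 bp of exon with Jun and Ddit3 and cannot stand for their levels. Of 7 such factors, Cebpb, a C/EBP factor that pairs with CHOP, was the highest at 24.4 ± 6.50 CPM per kb, and the median was 6.16. Atf4, the factor that induces Ddit3, had only 5 to 8 counts per library, or 4.07 CPM per kb. Its row did not pass the filter and was not tested.

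The first comparison was that of flox/flox with WT islets, which asks whether the P07Rik mutation changes islet RNA. Ddit3 and Mars differed between the genotypes by less than the spread between mice. The mean of Ddit3 was 73.7 ± 20.6 CPM in WT and 78.3 ± 13.8 CPM in flox/flox libraries (SD, n = 3 each). The log2 fold change was 0.09, with a standard error (SE) of 0.24 and an adjusted p of 1.00 (quasi-likelihood test of edgeR, Benjamini-Hochberg method). The mean of Mars was 844.1 ± 68.8 CPM in WT and 788.3 ± 114.7 CPM in flox/flox libraries. Its log2 fold change was -0.10, with an SE of 0.15 and an adjusted p of 1.00 by edgeR. Of all 5478 genes tested 0 were called at an adjusted p under 0.05 by edgeR (0.0%), with 101 at an unadjusted p under 0.05, and DESeq2, which gave values for all 15286 rows, called 0, with 75 at an unadjusted p under 0.05. With litter as a block edgeR called 3 genes, and without flox/flox replicate 3 it called 1, with none of the 4 genes among them. The sign for Ddit3 turned to -0.04 without WT replicate 1, to -0.04 without flox/flox replicate 3 and to -0.15 with library size only.

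Within litters, the log2 ratio of flox/flox to WT for Ddit3 was 0.20 in litter 1 and -0.07 in litter 2, and for Mars -0.06 in litter 1 and -0.19 in litter 2. The log2 difference of these effects was -0.28 for Ddit3 and -0.14 for Mars (adjusted p of 0.958 for Mars by edgeR) and was not called for either gene, with 1 mouse of each genotype in litter 2.

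For Gm4189, WT libraries together held 10 counts and flox/flox libraries 7, a ratio of 0.86 scaled to library size (95% exact interval 0.28 to 2.51). For Trib3 the sums were 9 counts in WT and 1 count in flox/flox libraries, a ratio of 0.14 (95% exact interval 0.0031 to 0.989). The interval for Trib3 covers counting error alone and not the spread between mice. In an edgeR fit without the low-count filter, which takes in that spread, the adjusted p was 0.997 for each of these genes. The genotypes overlapped, since flox/flox replicate 1 and WT replicate 1 had 1 count of Trib3 each.

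The second comparison was that of litter 2 with litter 1, with genotype in the model. Ddit3 was at 94.98 ± 3.34 CPM in litter 2 (SD, n = 2) and 66.5 ± 7.54 CPM in litter 1 (SD, n = 4), a log2 fold change of 0.52 (SE 0.20). Both mice of litter 2 lay above all 4 mice of litter 1, as was so for 16.9% of the genes tested. The adjusted p was 0.0779 by edgeR, which misses the threshold and does not show that the litters are equal, and 800 genes had a p at or below that of Ddit3 (14.6%). The fold change was positive under each alternative tried, from 0.33 to 0.66, with adjusted p from 0.0776 to 0.561.

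For Mars the litters overlapped, at 792.1 ± 74.8 CPM in litter 2 and 828.2 ± 105.1 CPM in litter 1, with a log2 fold change of -0.07 (SE 0.13, adjusted p = 0.8003 from edgeR). Leaving out flox/flox replicate 1 turned this to 0.03, and leaving out flox/flox replicate 3 turned it to 0.01. Trib3 had 9 of its 10 counts in WT mice of both litters, and Gm4189 had 2 and 3 counts in the mice of litter 2, and neither was called by litter in the edgeR fit without the low-count filter (log2 fold change 0.99, adjusted p = 0.775 for Trib3 and -0.14, adjusted p = 0.978 for Gm4189). Of all 5478 genes, 620 were called (11.3%), 333 of them higher in litter 2. The count was 171 of 4321 genes with DESeq2 and 233 of 5847 genes without WT replicate 3. With library size only it was 265, of which 46 were higher, and the median over all genes was then -0.19 in place of -0.01.

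Cell type markers also differed between the litters. Gcg was lower in litter 2, at 43.1 ± 4.08 CPM against 94.5 ± 41.8 CPM in litter 1 (log2 fold change -1.13, standard error 0.27, adjusted p = 0.00267 from edgeR). Krt7, a keratin of duct cells and the only 1 of 4 ductal markers analysed, was higher, at 53.8 ± 12.9 against 29.6 ± 8.59 CPM (log2 fold change 0.84, standard error 0.28, adjusted p = 0.0416 from edgeR). The alpha cell list summed to 82.3, 172.6 and 64.9 CPM in WT replicates 1 to 3 and to 77.0, 121.5 and 54.2 CPM in flox/flox replicates 1 to 3. The ductal list summed to 32.9, 20.8 and 44.6 CPM in WT and to 40.0, 24.7 and 62.9 CPM in flox/flox libraries. The call of Gcg was lost with DESeq2 (-1.09), with robust estimation (-1.13), without WT replicate 2 (-0.74) and without WT replicate 3 (-1.06), with adjusted p up to 0.164. That of Krt7 was lost with DESeq2 (0.88), with library size only (0.63), and without WT replicate 2 (0.72), WT replicate 3 (0.94), flox/flox replicate 2 (0.70) or flox/flox replicate 3 (0.74), with adjusted p up to 0.332. The part of cell composition in the level of Ddit3 was not tested.

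The share of the locus counts that fell on each row followed the same order in every library. On the reversed strand the rows would stand for the reads opposite each gene, so the shares are those of rows and not of transcripts. Of the counts of Ddit3, Mars and Gm4189 together, Ddit3 held 6.04%, 7.68% and 10.3% in WT replicates 1 to 3 and 7.72%, 8.39% and 11.1% in flox/flox replicates 1 to 3. The exact 95% interval was 4.40% to 8.05% in WT replicate 1, the lowest, and 8.40% to 14.2% in flox/flox replicate 3, the highest. Intervals on either side of the litter boundary overlapped, at 5.98% to 11.4% in flox/flox replicate 2 and 8.15% to 12.8% in WT replicate 3. The mean share was 7.46% ± 1.00 in litter 1 (SD, n = 4) and 10.7% ± 0.54 in litter 2 (SD, n = 2), and 8.01% ± 2.15 in WT and 9.06% ± 1.77 in flox/flox libraries (SD, n = 3 each). Gm4189 held 0.15% to 0.68%. In its point values the share of the Ddit3 row was thus higher in both libraries of litter 2 and overlapped between genotypes. Between the mice of each genotype in litter 1, and between those of litter 2, the library with the larger share of AY036118 also had the larger share of the Ddit3 row, and the part of AY036118 was not tested.

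Within 100 kb of the locus, the annotation holds 17 further genes, among them a second gene of the symbol Ddit3 (ENSMUSG00000116429, chr10:127290829-127293753, plus strand), which overlaps the first and was not analysed here. Of the 17, 9 were analysed and 6 of those had a mean under 10 counts. F420014N23Rik, a long non-coding RNA on the plus strand whose exons overlap Pip4k2c, was the highest at 134.9 ± 9.16 CPM per kb (SD, n = 6). It had 238, 246 and 273 counts in WT and 246, 206 and 185 counts in flox/flox libraries. Mbd6, which encodes a methyl-CpG binding domain protein, had 10 to 34 counts, and Dctn2, a dynactin subunit, had 5 to 16 counts. None of these genes was called. By litter, the log2 fold change was 0.63 (SE 0.29, adjusted p = 0.160 from edgeR) for Mbd6, 0.54 (SE 0.41, adjusted p = 0.426) for Dctn2 and 0.02 (SE 0.13, adjusted p = 0.936) for F420014N23Rik. By genotype each had an adjusted p of 1.00.

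The wider pathway was read from 7 lists that hold 111 genes. Of these, 95 were analysed and 32 passed the low-count filter. By genotype 0 of the 32 were called, and their median log2 fold change was -0.09 beside -0.01 for all genes tested. By litter 4 of the 32 were called (12.5%, beside 11.3% of all genes), all lower in litter 2, and their median was -0.23 beside -0.01 for all genes. Of the 32 genes 21 (65.6%) have exons that overlap a gene on the opposite strand, against 13 of the 63 (20.6%) that did not pass the filter. Over all rows these shares were near, at 62.0% and 27.2%.

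Among kinases and factors upstream of ATF4, 5 of 12 passed the filter. Eif2ak1, the heme-regulated eIF2 kinase, was the most abundant at 94.4 ± 17.97 CPM (SD, n = 6), followed by Eif2b4, a subunit of the exchange factor of eIF2, at 85.6 ± 16.9 CPM and Eif2ak4, the kinase that senses uncharged tRNA, at 34.5 ± 5.50 CPM. Exons of Eif2ak1 overlap Aimp2, and those of Eif2b4 overlap Snx17. By genotype the smallest p values were those of Eif2b4 (log2 fold change -0.26) and Eif2ak1 (-0.16), both with an adjusted p of 1.00 by edgeR. By litter Eif2b4 had -0.43 (adjusted p = 0.165). Ppp1r15b, which directs a phosphatase to eIF2, was lower in litter 2, from only 3 to 17 counts per library, with a log2 fold change of -1.62 (SE 0.52, adjusted p = 0.0346 from edgeR). This call was lost with no filter, with limma-voom, and when any library other than flox/flox replicate 1 was left out. The log2 fold change was then from -1.39 to -1.72. Where both mice of litter 2 were kept, the adjusted p by edgeR was up to 0.128. Exons of Ppp1r15b overlap Gm26616.

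Of the transcription factors, 5 of 10 passed the filter and 0 were called. Cebpd and Cebpb, C/EBP factors, were at 38.8 ± 3.96 and 36.6 ± 9.78 CPM, and Cebpg, a partner of ATF4, at 34.6 ± 7.68 CPM (SD, n = 6). By genotype the smallest p values were those of Cebpg (log2 fold change 0.33) and Atf5 (-0.16), with an adjusted p of 1.00 each. By litter they were those of Jun, an AP-1 factor, at -1.05 (SE 0.42, adjusted p = 0.0956 from edgeR) and Cebpb at 0.53 (SE 0.28, adjusted p = 0.231). Each of these genes overlaps an exon on the opposite strand, Junos in the case of Jun.

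No target gene of ATF4 and CHOP passed the low-count filter. Of 24 such genes 18 were analysed, and the most abundant were Slc3a2, an amino acid transporter subunit, at 11.8 ± 3.13 CPM, Herpud1, a factor of protein disposal from the endoplasmic reticulum, at 11.1 ± 3.14 CPM, and Vldlr, a lipoprotein receptor, at 10.3 ± 1.96 CPM (SD, n = 6). Slc3a2 had 10, 10 and 10 counts in WT and 10, 4 and 5 in flox/flox libraries. Asns, the asparagine synthetase, had 0 to 4 counts and Chac1, a glutathione-degrading enzyme, 1 to 2 counts per library. At these counts the target genes were not tested, and why the counts were low was not tested.

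The genes of chaperones and of the IRE1 and ATF6 branches, the other arms of the unfolded protein response, were the list with the most calls by litter. Of 21 genes 10 passed the filter, 3 of these were called (30.0%, beside 11.3% of all genes tested), all lower in litter 2, and the median of the 10 was -0.70. Endocrine markers had negative values beside it, with a median by litter of -0.36 over 5 beta cell markers tested, none called, -0.67 for Ppy (adjusted p = 0.298 by edgeR) and -1.13 for Gcg. Their part in the result was not tested. Hspa5, the chaperone BiP, had 108, 204 and 69 counts in WT and 112, 106 and 72 in flox/flox libraries. Its level was 191.4 ± 51.4 CPM in litter 1 and 109.6 ± 23.0 CPM in litter 2, with a log2 fold change of -0.83 (SE 0.19, adjusted p = 0.00157 from edgeR). Hsp90b1, the chaperone GRP94, was at 140.8 ± 17.9 CPM in litter 1 and 74.9 ± 27.5 CPM in litter 2, with -0.95 (SE 0.20, adjusted p = 5.8e-04). Pdia3, a disulfide isomerase, had -1.50 (SE 0.45, adjusted p = 0.0206) from 5 to 24 counts per library. The sign for these chaperones was opposite to that for Ddit3, which was not called.

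Manf, a secreted factor induced in the unfolded protein response, was at 102.6 ± 16.9 CPM (SD, n = 6) and was not called by litter or genotype. By genotype the smallest p values of the list were those of Calr (calreticulin), with a log2 fold change of -1.11 (SE 0.37, adjusted p = 1.00 from edgeR), and Canx (calnexin), with -0.53 (SE 0.34, adjusted p = 1.00). The litter calls of Hspa5, Hsp90b1, Pdia3 and Ppp1r15b were each lost without WT replicate 3, where the only list gene called was Lars2. The log2 fold change was then -0.48 for Hspa5, -0.50 for Hsp90b1, -1.06 for Pdia3 and -1.66 for Ppp1r15b. The call of Pdia3 was also lost with limma-voom (-1.44) and without WT replicate 2 (-1.39), and that of Hspa5 with DESeq2 (-0.78). Their adjusted p ranged up to 0.300 for Hspa5, 0.318 for Hsp90b1 and 0.471 for Pdia3 over the alternatives.

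Among cytoplasmic synthetases, the family of Mars, 6 of 22 passed the filter and 0 were called in either comparison. Farsb was at 157.5 ± 22.3, Yars at 70.5 ± 12.5 and Wars at 56.6 ± 8.78 CPM (SD, n = 6). By genotype the smallest p values were those of Aimp1, a scaffold of the synthetase complex, with a log2 fold change of 0.67 (SE 0.35), and Farsb, with 0.24 (SE 0.17), and both had an adjusted p of 1.00 by edgeR. By litter Farsb had -0.29 (adjusted p = 0.240) and Yars 0.30 (adjusted p = 0.393).

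Of the mitochondrial synthetases 5 of 17 passed the filter and 0 were called. Iars2 was at 489.6 ± 43.0 and Tars2 at 27.0 ± 9.86 CPM (SD, n = 6). By genotype Lars2 had a log2 fold change of 0.44 (adjusted p = 1.00 by edgeR). By litter the smallest p values were those of Iars2 (0.16, adjusted p = 0.457) and Hars2 (-0.50, adjusted p = 0.492). Lars2 had 763, 1592 and 574 counts in WT and 433, 996 and 1654 counts in flox/flox libraries, and its lowest and highest levels were in flox/flox libraries. By litter Lars2 was called at 1.29 without WT replicate 3 and at -0.998 without flox/flox replicate 3, so its direction turned with the library left out.

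Of the genes related to Trib3 and its partner AKT, 5 were analysed and 0 were called in either comparison. Akt1, an AKT kinase, was at 13.3 ± 4.66 CPM and Trib1, a Tribbles pseudokinase, at 12.3 ± 3.16 CPM (SD, n = 6), and neither passed the filter. Per kb, 3 of the 5 genes were above Trib3.

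The genes whose level was most like that of Ddit3 over the 6 libraries, by Pearson's r of log2 CPM among 1797 genes with a mean of at least 50 counts, were Gm17690 (r = 0.995), Lrrc4 (r = 0.993) and Cd81 (r = 0.986). Gm17690 is an antisense gene on chromosome 3 whose exons overlap Mtmr11 and Sf3b4, Lrrc4 encodes a synaptic adhesion protein, and Cd81 a tetraspanin. For Mars they were Ndor1 (r = 0.970), Gtf3a (r = 0.965) and Gm4673 (r = 0.956), each with exons that overlap a gene on the opposite strand. At r of 0.9 or more there were 67 genes for Ddit3 and 10 for Mars. These values describe 6 points that share litters and library composition.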

How the data were processed

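The 4 genes and the lists were chosen with earlier results of these data known. Strand-specific total RNA libraries of islets from 6 mice were sequenced. The authors discarded rRNA reads, mapped the rest to mm10 with HISAT2 2.1.0 and counted reads per Ensembl gene with HTSeq, largely at default settings. These counts, deposited by the authors as whole numbers that are not normalized, were used as they are. A table with the authors' own comparison (mean normalized counts, fold changes, p-values) was not used here. Symbols were matched for 15258 of 15286 genes in GENCODE's annotation of GRCm38, a later version than the authors'.

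Genotype was tested with edgeR 4.0.16 (quasi-likelihood test, R 4.3.3) as the only term, and litter with genotype as covariate, after TMM normalization and edgeR's default low-count filter (minimum count of 10), with Benjamini-Hochberg adjustment over 5478 genes, which hold 95.4% of all counts. CPM used the TMM-scaled sizes over the tested genes, and log2 CPM, used for correlations, a prior count of 2. The tests were tried first on simulated data. Genes listed by name were the 4 genes, genes that overlap them or lie within 100 kb, the 3 most abundant genes of each list, the 2 with the smallest p per comparison, those called, the 3 most alike by r, and cell type markers. Of the genes so named, 2 are not reported here. Asns, Atf4, Chac1 and Lars2 across litters were added after their values were seen. Alternatives were DESeq2 1.42.0, RLE, library size only, no filter, at least 10 counts in every library, limma-voom (limma 3.58.1), robust estimation, the counts of Ddit3, Mars and Gm4189 summed, litter as a block, no genotype term, and each library left out. Intervals are exact at 95%.

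Each mouse has a litter in its label and WT mice were littermates of flox/flox mice, so the libraries are paired by litter. Between WT and flox/flox libraries, deviations from genotype means correlated at 0.27, 0.14, 0.16 and 0.18 inside litter 1, at 0.46 inside litter 2, and at -0.35 to -0.25 across litters. Mitochondrially encoded genes, meant as a check of strand, were not analysed here, and pairs of coding and antisense genes were used instead, a choice made after seeing the data.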

Additional observations from a re-analysis of the deposited data

Results flagged for a closer look

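In litter 1, the group of 4 libraries, 33 sets of values were checked for a library far from the rest, by its gap to the nearest library over the range, against the critical value of Dixon's test. Chance alone passes this limit in about 1 of 20 groups. Gm4189 passed it at 0.926, with 1 count in flox/flox replicate 1 against 3 or 4 in the other libraries of litter 1. Cebpg passed it at 0.899, with 15 counts in WT replicate 1 against 23 to 31. Atf5 passed it at 0.990, being lowest in flox/flox replicate 1, whose 14 counts stood against 18 and 19 in WT and 14 in the smaller library of flox/flox replicate 2.

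Lars2, the mitochondrial leucyl-tRNA synthetase, passed the threshold in an edgeR term for a genotype effect that differs between litters (log2 difference 2.28, adjusted p = 9.3e-12). In litter 2 this rests on 1 mouse of each genotype, and mice of the same genotype in litter 1 also differed, so the term does not separate litter from mouse. In litter 2 Lars2 had 574 counts in the WT and 1654 in the flox/flox library, while in litter 1 it had 763 and 1592 in WT and 433 and 996 in flox/flox libraries. AY036118 held 13.6% of the counts in that WT and 41.0% in that flox/flox library, and in litter 1 its share was also higher in the replicate with more Lars2 counts of each genotype (20.0% against 14.5% in WT, 22.1% against 14.5% in flox/flox). The part of AY036118 in the level of Lars2 was not tested.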

How the results depend on the processing

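By genotype, neither Ddit3 nor Mars was called under any alternative run for it, with adjusted p of at least 0.933 by edgeR, DESeq2 or limma, which does not show that the genotypes are equal. Mars kept its sign, from -0.29 to -0.02. Ddit3 was reversed with library size only (-0.15), a setting that moved the median of all genes by genotype from -0.01 to -0.23, and ranged from -0.04 to 0.34 with a library left out, with -0.044 without WT replicate 1 and -0.042 without flox/flox replicate 3. Genes called by genotype were 0 in the main test, 2 with library size only (Gm18194 and Gm20633), 3 with litter as a replicate block (Gm18194, Gm20633 and Gm26526) and 0 to 1 with a library left out (Gm27176 without flox/flox replicate 3), names given after their values were seen. With the replicate block the log2 fold change was 0.10 for Ddit3 and -0.10 for Mars, and no list gene was called. Summed over the locus it was -0.08 by genotype and -0.01 by litter.

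By litter, Ddit3 was not called under any alternative and ranged from 0.38 to 0.66 with a library left out. Mars ranged from -0.13 to 0.03 with a library left out, and was above 0 without flox/flox replicate 1 (0.029) and without flox/flox replicate 3 (0.01). Genes called were 620, against 171 of 4321 genes with DESeq2, 265 with library size only and 233 to 540 with a library left out. List genes called, recomputed after seeing the data, were 4, against 1 with DESeq2 (which gave no adjusted p for Pdia3 and Ppp1r15b), 2 with at least 10 counts in every library, which leaves those genes untested, 2 with limma-voom, and 1 to 4 with a library left out. Mean levels of Ddit3 and Mars moved to 92.6 and 993.8 CPM when AY036118 was left out of library sizes. The mean share of Ddit3 in the locus was 8.03% to 9.03% with a library left out. At 0 to 5 counts per library, the counts limit what can be said of Gm4189 and Trib3.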
